A study of Mus musculus with 16 samples.

Results

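The CC chemokines followed here were 10 genes, Ccl2, Ccl3, Ccl4, Ccl5, Ccl6, Ccl7, Ccl8, Ccl9, Ccl12 and Ccl24, taken by symbol from the 24421 genes of the count files. All 10 had a value in each of the 16 libraries, and all 10 of 10 were among the 9642 genes tested. Ccl8 and Ccl24 were so low in Kaede-green cells that they entered the test only through the Kaede-red libraries, so their presence among the tested genes is no finding.

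The libraries were made from CD11b+ cells of subcutaneous MC38-Ova tumours, a mouse colon adenocarcinoma line carrying ovalbumin, in adult C57BL/6 mice transgenic for Kaede, a protein that violet light turns from green to red. No group received a drug. The 4 groups were Kaede-green cells at 24h, Kaede-red cells at 24h, Kaede-green cells at 72h and Kaede-red cells at 72h after the tumour was illuminated, with 4 libraries in each group. Kaede-red cells had been in the tumour when it was illuminated, while Kaede-green cells had entered since. The sort took live CD45+ cells that expressed Kaede and CD11b and lacked TER119 and NK1.1, and so could hold several kinds of myeloid cell. Converted cells keep some green signal, and a Kaede-green cell at 72h may have entered at any moment after illumination. In such bulk samples, fewer cells of a type and less RNA per cell cannot be told apart.

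CC chemokines are small secreted proteins with paired cysteines near the amino terminus, which attract leukocytes through G protein-coupled receptors. In tumours, ligands of CCR2 are known for drawing monocytes out of the blood, while ligands of CCR1 and related receptors act on monocytes, macrophages and T cells. Macrophages and monocytes are themselves a major source of these proteins. Most of the mouse genes lie in a pair of neighbouring gene clusters on chromosome 11, which arose by gene duplication.

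In the mm10 build (GENCODE M21 annotation), Ccl2 (chr11:82035571-82037453), Ccl7 (chr11:82045712-82047525), Ccl12 (chr11:82101845-82103400) and Ccl8 (chr11:82115185-82116799) followed each other on the plus strand. Ccl5 (chr11:83525778-83530518), Ccl9 (chr11:83572919-83578636), Ccl6 (chr11:83587882-83593087) and Ccl3 (chr11:83647844-83649355) lay further along on the minus strand, with Ccl4 (chr11:83662584-83664683) on the plus strand beside them. Ccl24 (chr5:135569937-135573049) lay apart, on the minus strand of chromosome 5. Counts were summed over the exons of each gene. Ccl2 overlaps the gene model Gm17268 and Ccl6 overlaps E230016K23Rik, each on the opposite strand, and whether strand was used in counting is not given in the sources used here, so reads of those partners could be included. In coding sequence the closest members were Ccl3 and Ccl4 with 68.4% identity, followed by Ccl7 and Ccl8 with 65.0%, Ccl8 and Ccl12 with 64.8% and Ccl6 and Ccl9 with 64.6%. No stretch of 50 bases was shared between the transcripts of 9 members and those of any other gene. Ccl9 was the exception, since 59 of its 2996 distinct 50-base stretches also occurred in transcripts of 463 other genes.

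The 250 bases upstream of the start site are shown for 4 members with contrasting patterns, Ccl8 and Ccl12 from one cluster and Ccl9 and Ccl6 from the other. RefSeq sequence (GRCm38.p6) was found for these 4 members and Ccl3, that is 5 of 10. Each is written 5′ to 3′ along its own gene, with matches to searched motifs in capitals.
Ccl12, chr11:82101595-82101844, plus strand: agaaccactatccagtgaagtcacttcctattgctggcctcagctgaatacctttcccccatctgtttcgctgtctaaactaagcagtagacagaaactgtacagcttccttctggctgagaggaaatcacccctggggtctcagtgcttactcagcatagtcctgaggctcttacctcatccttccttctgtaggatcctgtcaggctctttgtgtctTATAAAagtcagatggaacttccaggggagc
Ccl8, chr11:82114935-82115184, plus strand: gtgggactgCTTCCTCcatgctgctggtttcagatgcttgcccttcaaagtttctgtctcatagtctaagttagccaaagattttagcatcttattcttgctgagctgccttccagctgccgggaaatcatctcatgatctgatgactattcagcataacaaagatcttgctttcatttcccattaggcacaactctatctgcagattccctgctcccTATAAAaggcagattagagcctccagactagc
Ccl9, chr11:83578637-83578886, minus strand: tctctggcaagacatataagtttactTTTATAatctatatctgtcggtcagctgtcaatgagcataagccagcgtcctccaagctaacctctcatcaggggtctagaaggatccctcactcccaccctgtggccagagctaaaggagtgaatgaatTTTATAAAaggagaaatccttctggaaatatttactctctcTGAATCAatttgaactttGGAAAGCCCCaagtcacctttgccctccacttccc
Ccl6, chr11:83593088-83593337, minus strand: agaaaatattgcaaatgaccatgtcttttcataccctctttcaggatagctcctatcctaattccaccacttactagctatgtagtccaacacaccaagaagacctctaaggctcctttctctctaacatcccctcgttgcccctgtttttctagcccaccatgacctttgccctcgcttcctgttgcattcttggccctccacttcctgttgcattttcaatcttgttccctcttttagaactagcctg
Both strands were searched for a TATA box spelled TATAAA, which 12.4% of all 32851 upstream windows of this length held. It began 31 bases before the start of Ccl12 and 32 bases before that of Ccl8, and Ccl9 held 3 matches to it, of which 2 overlap each other. The AP-1 motif TGANTCA occurred in Ccl9 and in 6.75% of all windows. The NF-kB motif GGGNNNNNCC occurred in Ccl9 and in 45.8% of all windows. The PU.1 motif GAGGAAG occurred in Ccl8, on the opposite strand, and in 10.6% of all windows. None of these 5 members held the C/EBP motif TTNNNCAAT (10.03% of windows), the STAT motif TTCNNNGAA (7.02%) or the interferon response motif GAAANNGAAA (2.98%), and the windows of Ccl6 and Ccl3 held none of the 7 motifs. The windows of the neighbours Ccl12 and Ccl8 were 55.6% identical after alignment, against 47.2% for Ccl6 and Ccl9. The other pairs among the 5 windows ranged from 43.7% (Ccl12 and Ccl3) to 50.4% (Ccl3 and Ccl8), so Ccl6 and Ccl9 lay within that range. These are descriptions of letters, and no factor binding was measured.

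The libraries held 3216858 to 15423085 counts. The ribosomal RNA gene Rn45s took 79.0 to 93.4% of these in Kaede-green and 55.8 to 84.9% in Kaede-red libraries, which left 468092 to 912689 counts for all other genes in Kaede-green and 758192 to 5472477 in Kaede-red libraries. Levels are therefore given as CPM, that is per 1000000 counts of a library size corrected with the TMM method, in which most genes and not Rn45s set the scale. When libraries were scaled by their counts outside Rn45s instead, the median gene itself had a log2 fold change of 0.82 between the colours over both times, so values on that scale are given relative to this shift. Macrophage and monocyte markers were abundant in every group, with summed levels of 1142 to 2598 CPM at 24h and 1383 to 1865 CPM at 72h in the Kaede-green libraries, against 939 to 1507 and 1556 to 1905 CPM in the Kaede-red ones, and none of the 12 was at 0. Lyz2 held much of this sum, with 1219 ± 467 CPM in Kaede-green against 347 ± 96.2 CPM in Kaede-red libraries at 24h, and was the 1 marker called lower in Kaede-red cells over both times (-1.24, edgeR adjusted p = 1.97e-05). By contrast 8 of the 12 were called higher, among them C1qa (2.72, adjusted p = 2.41e-13) and Adgre1 (1.53, adjusted p = 8.06e-09). The 7 fibroblast markers summed to 41.8 to 55.2 CPM in Kaede-green against 20.0 to 38.6 CPM in Kaede-red libraries at 24h, and to 46.1 to 51.5 against 12.5 to 19.5 CPM at 72h, with Lum at 0 in Kaede-green cells at 24h. The neutrophil list reached at most 14.5 CPM outside Kaede-red cells at 72h, where it was 17.8 to 23.3 CPM, and Ngp was at 0 throughout. In Kaede-red cells at 72h, Csf3r alone held 15.3 to 17.1 CPM of this sum and Mmp8 2.00 to 4.23 CPM. S100a8 and S100a9 had means of 0.172 and 0.318 CPM there, below the 1.11 and 1.15 CPM of Kaede-green cells at 72h. T and NK cell markers summed to at most 11.04 CPM and dendritic cell markers to at most 5.09 CPM in any library. Endothelial markers summed to 10.6 to 15.98 CPM in Kaede-green against 18.1 to 22.7 CPM in Kaede-red libraries at 24h, and to 9.77 to 19.0 against 23.1 to 36.8 CPM at 72h, with 2 of 3 tested genes called higher over both times (Kdr and Pecam1) and 1 called lower. Markers of dividing cells summed to 23.1 to 31.8 CPM in Kaede-red libraries at 72h and to 27.8 to 65.7 CPM over the other groups, and 2 of 6 were called lower in Kaede-red than in Kaede-green cells at 72h. The part of these cells in the results below was not tested. The study's legends describe the plotted points as tumours of separate mice. Whether Kaede-green and Kaede-red cells of 1 replicate number came from the same tumour is not given in the sources used here.

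Compared per length, as CPM per kb of exon, the leading chemokine was the same in all Kaede-red libraries and varied among the Kaede-green ones. In Kaede-green cells at 24h, Ccl6 (115 ± 35.5 CPM per kb, mean ± SD, n = 4), Ccl9 (109 ± 33.7), Ccl2 (106 ± 23.7) and Ccl7 (87.1 ± 12.3) overlapped from each to the next, as they did at 72h in the order Ccl9, Ccl2, Ccl7 and Ccl6. In Kaede-red cells Ccl7 stood first in all 8 libraries. It also stood first in 1 Kaede-green library at 24h and in 1 at 72h. Of the other Kaede-green libraries, Ccl6 led 2 and Ccl9 led 1 at 24h, and Ccl9 led 3 at 72h. In Kaede-red cells at 24h Ccl7 reached 189 ± 45.7 CPM per kb and lay clear of the next gene, Ccl6 (96.9 ± 17.8). In Kaede-red cells at 72h its 85.5 ± 25.9 CPM per kb overlapped with Ccl2 (56.4 ± 15.1). Ccl12 followed Ccl7, Ccl6 and Ccl2 in both Kaede-red groups, with 94.1 ± 13.9 CPM per kb (24h) and 47.4 ± 14.7 CPM per kb (72h). The least abundant genes in every group were Ccl24, at most 0.901 CPM per kb on average, and Ccl8, Ccl5 and Ccl3, none of which exceeded 19.2 CPM per kb on average. The order among the leading genes depended on the length used. An alternative added after seeing the data took the length of the longest coding transcript in place of all exons. Ccl2 (813 in place of 1138 bases) then came first in both Kaede-green groups with 148 ± 33.2 and 106 ± 21.4 CPM per kb. By group mean Ccl7 remained first in both Kaede-red groups, at 72h with 85.5 ± 25.9 against 79.0 ± 21.2 CPM per kb for Ccl2. In single Kaede-red libraries at both times, however, Ccl2 or Ccl6 then stood above Ccl7.

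**Figure D1:**
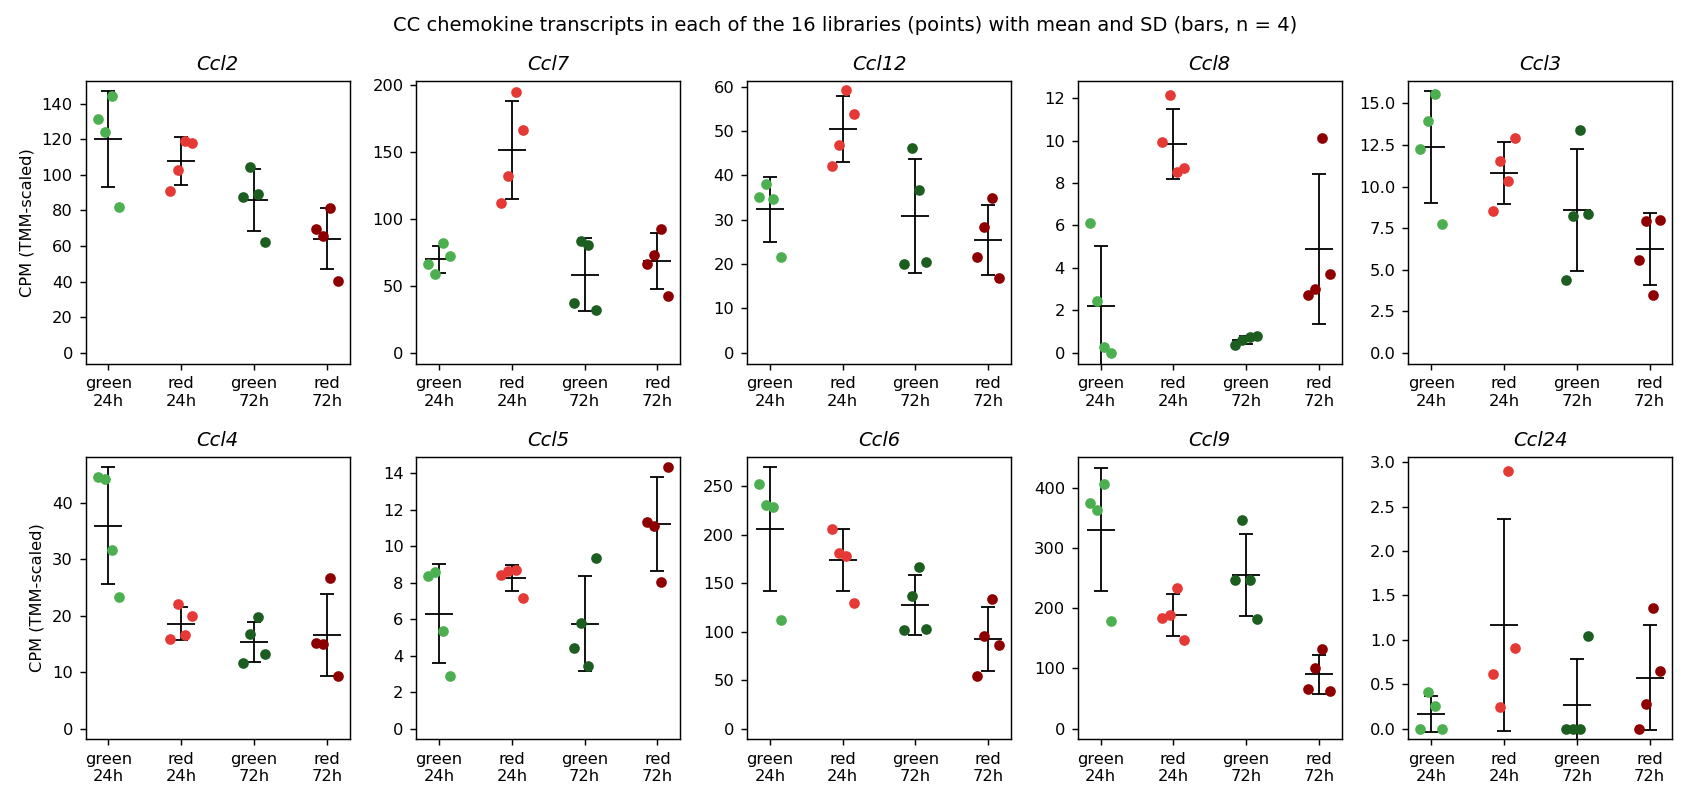
Level of each of the 10 CC chemokines in the 16 libraries, in TMM-scaled CPM on linear axes. Points are libraries, horizontal marks the group means and bars the SD (n = 4). At 24h each Kaede-red library lay above each Kaede-green library for Ccl7, Ccl8 and Ccl12, and below for Ccl4. At 72h this held upward for Ccl8 and downward for Ccl9. Of all genes 7.09% lay higher and 5.43% lower in this way at 24h, and 13% and 9.52% at 72h.

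Summed over the 10 genes, the level was 558 ± 125 CPM per kb in Kaede-green against 607 ± 68.2 in Kaede-red cells at 24h, compared with 402 ± 108 and 325 ± 89.4 at 72h. Within this sum Ccl7 took 16.4 ± 5.45% in Kaede-green against 30.8 ± 4.39% in Kaede-red cells at 24h, compared with 17.3 ± 3.96% and 26.1 ± 2.89% at 72h. Ccl9 took 19.1 ± 2.28% and 10.2 ± 1.48% at 24h, and 21.1 ± 3.22% and 8.96 ± 1.05% at 72h. These shares do not depend on library scaling. The shares of Ccl7 ranged from 12.2 to 24.2% over the 8 Kaede-green libraries and from 22.3 to 34.7% over the 8 Kaede-red libraries, so that they overlapped, whereas those of Ccl9 were at least 15.9% in Kaede-green and at most 11.3% in Kaede-red libraries. Ccl2 held a similar place in all 4 groups, with mean shares between 15.6 and 19.1%.

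**Figure D2:**
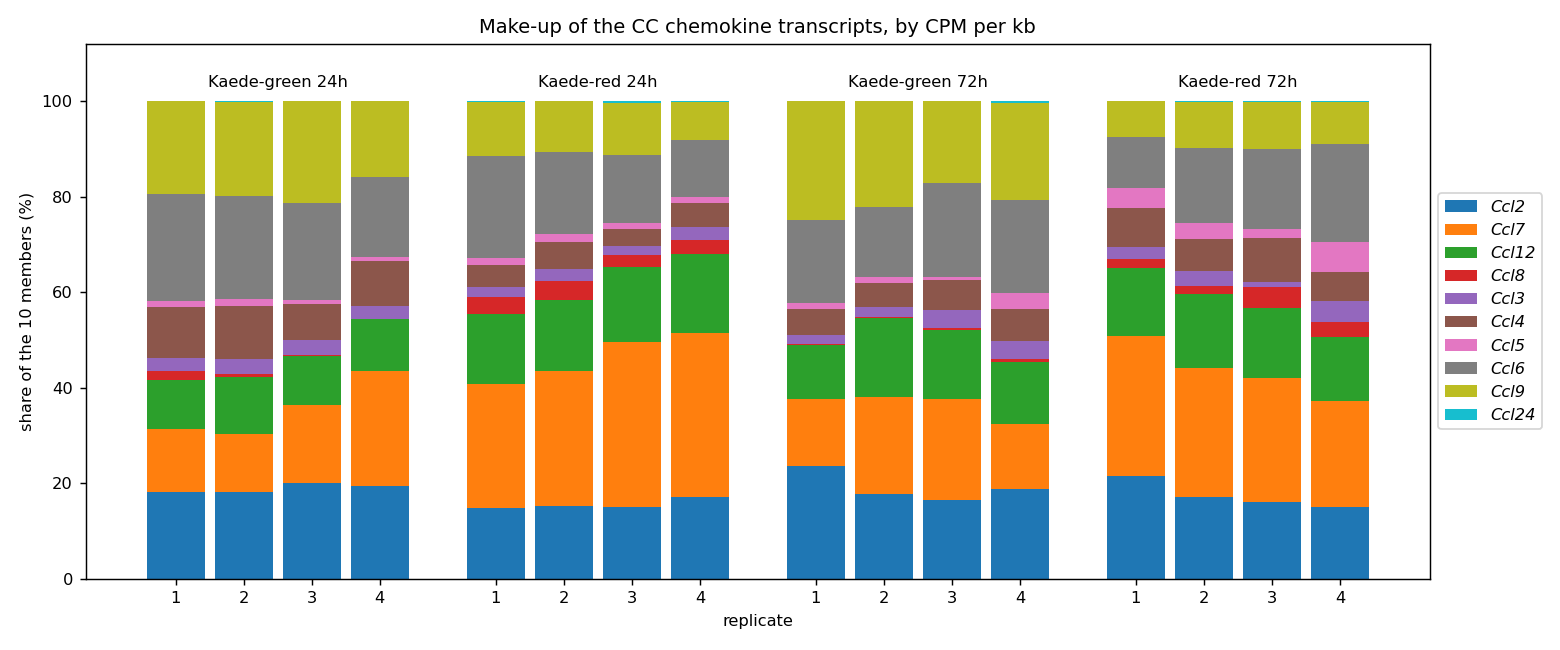
Share of each member in the summed CPM per kb of the 10 CC chemokines, as stacked bars that reach 100% in each of the 16 libraries. Ccl9 held 15.9 to 24.8% of the sum in Kaede-green libraries and 7.56 to 11.3% in Kaede-red libraries.

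The comparison of Kaede-red with Kaede-green cells asks how transcripts differ between cells that had stayed in the tumour and cells that had entered it since. Over both times, Ccl8, Ccl7 and Ccl5 were higher and Ccl9 was lower in Kaede-red cells. The log2 fold changes were 2.61 for Ccl8 (SE 0.43, adjusted p = 2.61e-05), 0.67 for Ccl7 (SE 0.19, adjusted p = 0.00913), 0.69 for Ccl5 (SE 0.22, adjusted p = 0.0204) and -1.16 for Ccl9 (SE 0.18, adjusted p = 1.52e-05). All p-values come from the quasi-likelihood method of edgeR, adjusted after Benjamini-Hochberg over the 9642 genes, and a gene was called at an adjusted p under 0.05. Thus 4 of 10 members were called, 3 higher and 1 lower, where 20.3% of all genes tested were called, 10% higher and 10.3% lower. Ccl8 entered the test only through the Kaede-red libraries. Its p-values between the colours, here and at each time, are therefore descriptions and no support for a difference. The counts of members called or without overlap between the colours include it. When scaled by counts outside Rn45s, 7 members were called higher and 1 lower, but so were 61.1% and 2.43% of all genes. No member separated all 8 libraries of one colour from all 8 of the other, which 1.19% of all genes did upward and 1.74% downward. The median log2 fold change of the members was -0.06, against 0.06 for all genes. Ccl2 (-0.29, adjusted p = 0.183), Ccl3 (-0.32, adjusted p = 0.286), Ccl4 (-0.44, adjusted p = 0.0901), Ccl6 (-0.35, adjusted p = 0.161), Ccl12 (0.17, adjusted p = 0.541) and Ccl24 (1.60, adjusted p = 0.222) did not pass. The call of Ccl5 was lost without replicate 3 of Kaede-green at 24h (0.64, adjusted p = 0.0516), replicate 3 of Kaede-green at 72h (0.58, adjusted p = 0.0617) or replicate 4 of Kaede-red at 72h (0.62, adjusted p = 0.0530). When the fit also took each library's Rn45s share as a covariate, Ccl7 was still called, as was Ccl8, whose p-value is a description only. Ccl5 (0.14, SE 0.33, adjusted p = 0.944) and Ccl9 (-0.80, SE 0.31, adjusted p = 0.257) were not. The Rn45s share itself differed between the colours, and these SEs were larger than without the covariate. The part of the Rn45s share in these calls was not tested.

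At 24h, Ccl7 and Ccl8 were called higher in Kaede-red cells. Both lie in the cluster that also holds Ccl2 and Ccl12, which were not called. Since Ccl8 entered the test only through the Kaede-red libraries, these calls are no result about the cluster. Ccl7, a ligand of CCR2 and other receptors, had 66.4, 58.6, 82.1 and 72.0 CPM in the Kaede-green against 112, 132, 195 and 166 CPM in the Kaede-red libraries. The groups did not overlap, and the log2 fold change was 1.11 (SE 0.26, edgeR adjusted p = 0.00656). Ccl8, which in the mouse acts on CCR8, had 6.13, 2.46, 0.255 and 0 CPM in Kaede-green against 9.93, 12.2, 8.53 and 8.72 CPM in Kaede-red libraries. These groups did not overlap either, although Kaede-green replicate 1 stood well above the other libraries of its group (log2 fold change 2.43, SE 0.56, edgeR adjusted p = 0.00453). Since only 18 counts fell on Ccl8 in the 4 Kaede-green libraries, against 395 in the Kaede-red ones, the ratio of the pooled levels was 5.73 with an exact 95% interval of 3.58 to 9.77, which covers counting error only. Ccl12, the other mouse ligand of CCR2 in this cluster, had 35.1, 38.1, 34.7 and 21.7 CPM in Kaede-green against 42.2, 46.9, 59.2 and 53.8 CPM in Kaede-red libraries. Its groups did not overlap, but the log2 fold change of 0.64 (SE 0.25) had an edgeR adjusted p of 0.124, and with no filter on low counts it passed (0.72, adjusted p = 0.0484). It also passed when each library had to hold 10 counts or more (0.77, adjusted p = 0.0343) and with the Rn45s share as a covariate (1.12, adjusted p = 0.0388). Among the alternatives its adjusted p reached 0.149. It stayed uncalled in all 16 edgeR fits that left out 1 library (adjusted p from 0.102 to 0.306). Ccl2, the best known CCR2 ligand, had 120.3 ± 27.0 CPM in Kaede-green against 108 ± 13.4 CPM in Kaede-red cells and a log2 fold change of -0.16 (adjusted p = 0.732).

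Ccl4 and Ccl9 were called lower in Kaede-red cells at 24h. Ccl4, an inflammatory chemokine of macrophages and T cells, had 44.6, 44.2, 31.6 and 23.3 CPM in Kaede-green against 15.9, 22.0, 16.5 and 19.9 CPM in Kaede-red libraries. All Kaede-red libraries lay below all Kaede-green ones (log2 fold change -0.94, SE 0.26, edgeR adjusted p = 0.0197). Ccl9, a ligand of CCR1 that is abundant in mouse myeloid cells, had 375, 363, 406 and 179.5 CPM in Kaede-green against 184, 189.6, 234 and 148 CPM in Kaede-red libraries. Only replicate 4 of the Kaede-green group reached into the Kaede-red range (log2 fold change -0.81, SE 0.26, edgeR adjusted p = 0.0475). Ccl6, its neighbour and also a CCR1 ligand, did not pass (-0.24, adjusted p = 0.636), nor did Ccl3, another ligand of CCR1 (-0.20, adjusted p = 0.755), Ccl5 (0.41, adjusted p = 0.496) or Ccl24 (2.46, SE 1.34, adjusted p = 0.300). With 4 of 10 members called, 2 higher and 2 lower, the background was 7.5% of all genes called, 3.22% higher and 4.28% lower. Without overlap, 3 members lay higher and 1 lower, where 7.09% and 5.43% of all genes did. Leaving out replicate 1 or 2 of Kaede-green or replicate 1 or 3 of Kaede-red at 24h ended the call of Ccl4 (adjusted p between 0.0550 and 0.0711). The call of Ccl9 held in 7 of 16 fits that left out 1 library, with adjusted p up to 0.140. It was lost without replicates 1, 2 or 3 of Kaede-green or 1, 2 or 4 of Kaede-red at 24h, and without replicate 1 of Kaede-green or 1 or 2 of Kaede-red at 72h. Scaling by counts outside Rn45s gave Ccl9 0.11 and Ccl4 -0.02, or -0.83 and -0.95 relative to the median gene on that scale. With the Rn45s share in the fit, both fell short with larger SEs (0.33 and 0.34, adjusted p = 0.566 and 0.474). Ccl7 was still called, as was Ccl8, whose p-value is a description only. When each library had to hold 10 counts or more, Ccl9 fell short as well (-0.68, adjusted p = 0.0567).

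At 72h, Ccl8 and Ccl5 were called higher and Ccl9 lower in Kaede-red cells. Ccl8 had 0.366, 0.611, 0.730 and 0.780 CPM in Kaede-green against 2.70, 3.03, 10.1 and 3.71 CPM in Kaede-red libraries. The groups did not overlap, with Kaede-red replicate 3 far above the rest (log2 fold change 2.80, SE 0.65, edgeR adjusted p = 0.00245). The pooled ratio, from 9 and 432 counts, was 5.62 (exact 95% interval 2.93 to 12.4). Ccl5, a chemokine made by T cells and macrophages, had 4.39, 5.80, 3.41 and 9.36 CPM in Kaede-green against 11.3, 11.1, 8.02 and 14.3 CPM in Kaede-red libraries. One library of each group lay in the range of the other (log2 fold change 0.97, SE 0.29, edgeR adjusted p = 0.0195). Ccl9 had 247, 347, 247 and 182 CPM in Kaede-green against 65.3, 101, 132 and 62.7 CPM in Kaede-red libraries. Every Kaede-red library lay below every Kaede-green one, and the log2 fold change was -1.51 (SE 0.26, edgeR adjusted p = 9.25e-05).

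Thus 3 of 10 members were called at 72h, 2 higher and 1 lower, against 16.8% of all genes, 8.06% higher and 8.76% lower. One member lay higher and 1 lower without overlap, against 13% and 9.52%. Neither Ccl7 (0.23, adjusted p = 0.618), with 36.9, 83.4, 80.5 and 32.3 CPM in Kaede-green against 66.3, 73.3, 92.3 and 42.1 CPM in Kaede-red libraries, nor Ccl4 (0.06, adjusted p = 0.907) passed. Ccl12 had a log2 fold change of -0.30 (adjusted p = 0.459), Ccl2 of -0.42 (adjusted p = 0.186), Ccl3 of -0.44 (adjusted p = 0.322) and Ccl6 of -0.46 (adjusted p = 0.213). The call of Ccl5 was lost without replicate 1, 2 or 3 of Kaede-green or replicate 4 of Kaede-red at 72h (adjusted p between 0.0534 and 0.108). That of Ccl9 held in all 16 fits that left out 1 library. The call of Ccl8 held as well, but it entered the test only through the Kaede-red libraries, so this is no support. With the Rn45s share in the fit, Ccl8 (2.92, SE 0.82, adjusted p = 0.0777), Ccl5 (0.34, SE 0.41, adjusted p = 0.890) and Ccl9 (-1.10, SE 0.38, adjusted p = 0.212) fell short. These SEs were larger than without the covariate. Ccl7 passed (1.26, adjusted p = 0.0493).

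Ccl24, the eotaxin that acts on CCR3, was near the detection limit. It had 2 counts in the 4 Kaede-green and 39 in the 4 Kaede-red libraries at 24h, a pooled ratio of 5.09 (exact 95% interval 1.32 to 43.5), and 4 against 51 counts at 72h, a ratio of 1.49 (0.549 to 5.69). Of the 39 counts at 24h, 16 came from a single library, and the 4 counts at 72h in Kaede-green cells all came from replicate 4. Eosinophil markers summed to at most 1.04 CPM in any library.

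**Figure D3:**
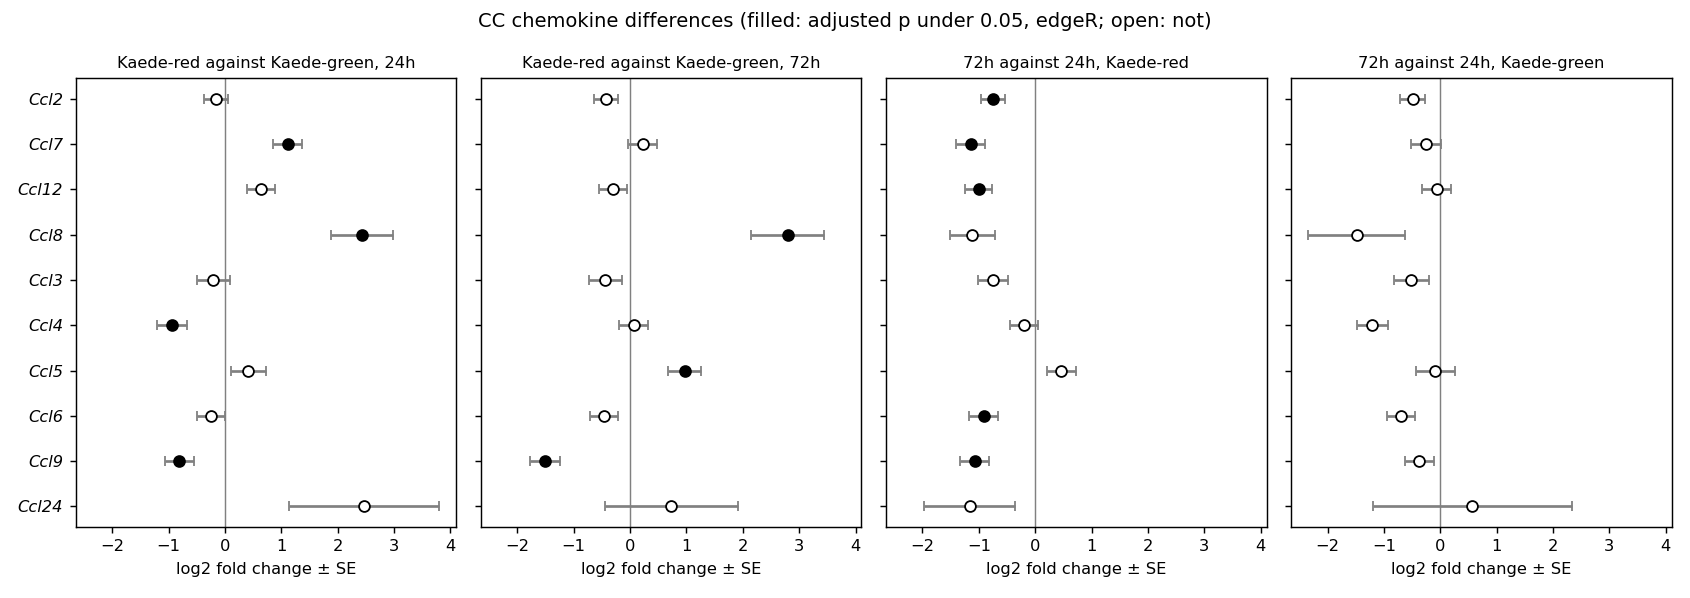
Log2 fold change of each member with its SE in 4 comparisons, from edgeR on TMM-scaled counts. Filled points had an adjusted p under 0.05. On this scale 9 of 10 members had negative values from 24h to 72h in Kaede-red cells and 5 were called.

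The comparison of 72h with 24h within Kaede-red cells sets cells with a longer stay against cells with a shorter one. According to the study, all tumours were illuminated on the same day after injection. The 72h libraries thus came from older tumours, of other mice, taken on a later day. In each comparison between the times, length of stay cannot be told apart from tumour age or day of harvest. All 5 members called were lower at 72h, namely Ccl7, Ccl9, Ccl12, Ccl6 and Ccl2. The log2 fold changes were -1.15 for Ccl7 (SE 0.26, edgeR adjusted p = 0.00597), -1.07 for Ccl9 (SE 0.26, adjusted p = 0.00889), -1.002 for Ccl12 (SE 0.24, adjusted p = 0.00916), -0.92 for Ccl6 (SE 0.25, adjusted p = 0.0201) and -0.75 for Ccl2 (SE 0.21, adjusted p = 0.0274). The background was 8.68% of all genes called, 3.76% lower and 4.92% higher, and the members' median was -0.96 against -0.01 for all genes. Ccl2 had 90.9, 103, 119 and 118 CPM at 24h and 69.6, 65.6, 81.2 and 40.3 CPM at 72h. Ccl2, Ccl7 and Ccl12 encode ligands of CCR2, which attract monocytes. Ccl12 had 42.2 to 59.2 CPM at 24h and 21.6, 28.3, 34.9 and 16.9 CPM at 72h. Ccl6 had 206, 181, 178 and 129.9 CPM at 24h and 54.1, 95.1, 134 and 86.7 CPM at 72h. The times did not overlap for Ccl2, Ccl7, Ccl9, Ccl12 and Ccl3, while for Ccl6 replicate 3 at 72h lay just above the lowest library at 24h. Thus 5 of 10 members lay lower without overlap, against 8.76% of all genes, and none lay higher, against 11.8%. Ccl3 (-0.75, adjusted p = 0.0738) and Ccl8 (-1.12, adjusted p = 0.0781) did not pass, but Ccl3 passed with DESeq2 (adjusted p = 0.0459) and Ccl8 without the filter on low counts (adjusted p = 0.0197). Ccl4 (-0.20, adjusted p = 0.691) and Ccl24 (-1.16, adjusted p = 0.422) did not pass, and Ccl5 was the one member with a positive value (0.47, adjusted p = 0.292).

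The number of members called lower at 72h fell from 5 to 1 without replicate 1 of Kaede-red at 72h. It fell to 2 without replicate 4 of that group and to 2 without replicate 3 of Kaede-red at 24h. The share of all genes called in these fits is not given here. Ccl7 kept its call in all 16 such fits (adjusted p from 0.00292 to 0.0400), Ccl9 and Ccl12 in 14, Ccl6 in 12 and Ccl2 in 11. The libraries that ended a call were replicate 3 at 24h and replicate 1 at 72h for Ccl9 (adjusted p = 0.0537 and 0.0584), and replicates 1 and 4 at 72h for Ccl12 (0.0515 and 0.0502). For Ccl6 they were replicates 1 and 3 at 24h and 1 and 4 at 72h (0.0520 to 0.118), and for Ccl2 replicates 3 and 4 at 24h and 1, 2 and 4 at 72h (0.0607 to 0.129). Kaede-red libraries at 24h held 66.2 to 84.9% Rn45s and those at 72h 55.8 to 73.8%, and the part of this in the result was not tested.

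In Kaede-green cells no member was called between 24h and 72h by edgeR, and 0% of all genes were called, although 835 genes had an unadjusted p under 0.05. Of the 10 members 9 had a negative log2 fold change, with a median of -0.43 against 0.03 for all genes. Ccl4 came closest. It had 11.7, 16.8, 19.7 and 13.3 CPM at 72h, all below the 4 libraries at 24h (23.3 to 44.6 CPM), with a log2 fold change of -1.21 (SE 0.27, unadjusted p = 9.93e-05, adjusted p = 0.239). It was the only member without overlap, where 1.08% of all genes lay lower and 1.92% higher in this way. DESeq2 called it (-1.23, adjusted p = 0.0239), as did edgeR without the filter on low counts (-1.19, adjusted p = 0.00297). Each called no other member, DESeq2 among the 9 members to which it gave an adjusted p. Ccl6 (-0.70, adjusted p = 0.421) and Ccl2 (-0.49, adjusted p = 0.524) followed, and Ccl12 (-0.07, adjusted p = 0.968) and Ccl5 (-0.09, adjusted p = 0.967) lay near 0. The comparisons share groups, so their values are given side by side and no correlation between them was computed.

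The change of the red-green difference between the times was tested as an interaction. No member was called, although 3 had an unadjusted p under 0.05, and DESeq2 called none of the 8 members to which it gave an adjusted p. Of all genes 0.757% were called, 0.425% for a higher and 0.332% for a lower difference at 72h. The values with the smallest p were 1.00 for Ccl4 (SE 0.37, edgeR adjusted p = 0.172), -0.94 for Ccl12 (SE 0.35, adjusted p = 0.185) and -0.89 for Ccl7 (SE 0.37, adjusted p = 0.243). The differences called for Ccl7 and Ccl4 at 24h and not at 72h are therefore not shown to differ between the times.

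**Figure D4:**
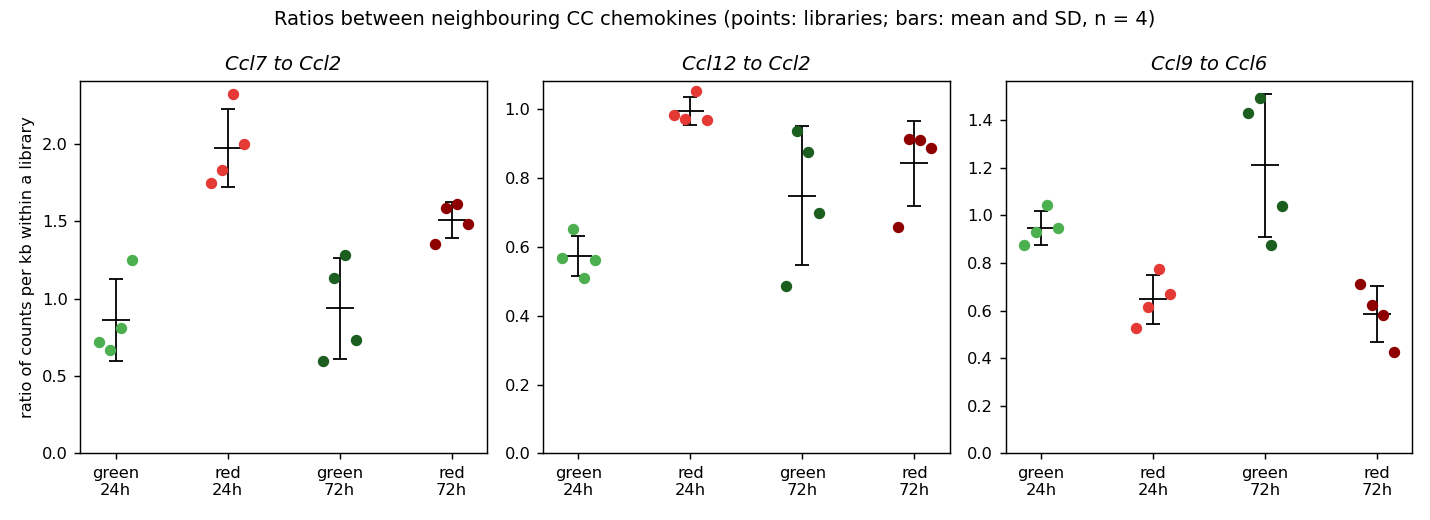
Ratios between neighbouring members within a library, as counts per kb of exon, which no library scaling enters. Points are libraries and bars the mean and SD (n = 4). The ratio of Ccl7 to Ccl2 was 0.598 to 1.28 in Kaede-green and 1.35 to 2.32 in Kaede-red libraries.

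Ratios within a library compare the neighbours directly. Ccl7 stood at 0.862 ± 0.265 of Ccl2 in Kaede-green against 1.98 ± 0.254 in Kaede-red cells at 24h, and at 0.938 ± 0.325 and 1.51 ± 0.119 at 72h. The 8 Kaede-red libraries (1.35 to 2.32) all lay above the 8 Kaede-green libraries (0.598 to 1.28). Ccl12 to Ccl2 was 0.572 ± 0.0584 against 0.994 ± 0.0403 at 24h, but 0.748 ± 0.202 against 0.842 ± 0.123 at 72h, where the libraries overlapped. Ccl9 to Ccl6 was 0.949 ± 0.0712 against 0.647 ± 0.104 at 24h and 1.21 ± 0.300 against 0.586 ± 0.119 at 72h. All Kaede-red libraries (0.427 to 0.776) lay below all Kaede-green ones (0.874 to 1.49). Ccl3 to Ccl4 was 0.305 ± 0.0821 against 0.503 ± 0.0542 at 24h, and 0.468 ± 0.118 against 0.405 ± 0.261 at 72h. The pairs were chosen with the results known, and the ratios are descriptions without a test.

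The genes whose log2 CPM followed each member most closely over the 16 libraries, group differences included, were listed as a description among 1390 or 1391 genes of mean log2 CPM of at least 4. For Ccl7 the closest was Ccl12 (Pearson r = 0.864, Spearman rho = 0.844), followed by the Bcl2-related genes Bcl2a1b (0.846) and Bcl2a1a (0.825). Ccl12 had Bcl2a1d (r = 0.925), Bcl2a1b (0.918) and Bcl2a1a (0.891), 3 near-identical copies among which reads may be split. With group means removed, r between Ccl7 and Ccl12 was 0.824, between Ccl2 and Ccl12 0.812 and between Ccl6 and Ccl9 0.808, against 0.0101 between Ccl2 and Ccl3. Ccl4 lay closest to the immediate early genes Dusp1 (r = 0.946) and Ier3 (0.848). Ccl5 lay closest to Gm21975 (r = 0.949) and to H2-Aa (0.915) and H2-Ab1 (0.901), which encode MHC class II chains. Ccl9 lay closest to Rpl37 (r = 0.965), Tpt1 (0.964) and Tmsb4x (0.963), and Ccl8 to P2rx4 (0.909), Snx5 (0.897) and Fth1 (0.890). Ccl6 followed Prdx1 (r = 0.898), Ccl2 followed Rap1b (0.856), Ccl3 followed Zfand5 (0.786) and Ccl24 followed Xpo1 (0.701). The libraries share their depth and Rn45s pattern, which can also move genes together.

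Among 14 other CC chemokine genes only Ccl22, a ligand of CCR4 known from dendritic cells and macrophages, had enough counts to be tested, and it entered the test only through the Kaede-red libraries. It had no count in any of the 8 Kaede-green libraries, against 0.968 ± 0.821 CPM (24h) and 1.17 ± 0.556 CPM (72h) in Kaede-red cells. Against a floor of 3 counts over the 4 Kaede-green libraries, its pooled level was at least 3.66-fold higher at 24h and at least 5.35-fold higher at 72h. The other 13 were too low for the test. Of 15 CC chemokine receptor genes 5 were tested. Ccr7, which guides dendritic cells to lymph nodes, had no count in Kaede-green cells at 24h, against 1.64 ± 0.661 CPM in the Kaede-red group, while at 72h the groups had 0.450 ± 0.409 and 1.67 ± 0.714 CPM. It also entered the test only through the Kaede-red libraries, and at 24h its pooled level was at least 5.66-fold higher against the same floor. Ccr1, a receptor of Ccl3, Ccl5, Ccl6 and Ccl9, was called lower over both times (-0.35, SE 0.13, edgeR adjusted p = 0.0467). Ccr2, the receptor of Ccl2, Ccl7 and Ccl12, did not pass (-0.01, adjusted p = 0.977) and had 146 ± 25.7, 128 ± 20.4, 122 ± 12.2 and 137 ± 18.5 CPM in Kaede-green 24h, Kaede-red 24h, Kaede-green 72h and Kaede-red 72h cells. The decoy-like receptor Ccrl2 (-0.36, adjusted p = 0.149) did not pass either. No receptor was called between 72h and 24h in either colour.

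Of 19 tested genes that carry or dampen chemokine receptor signals, 8 were called higher in Kaede-red cells over both times and 0 lower. Of all genes 10% were called higher and 10.3% lower. The arrestin Arrb2 had the smallest p of the 8 (1.20, SE 0.16, edgeR adjusted p = 8.99e-07). The G protein regulator Rgs1 had 1.14 over both times (SE 0.16, edgeR adjusted p = 2.41e-06), but its difference between the colours changed with time (-2.25, SE 0.32, adjusted p = 0.000478). It was called higher at 24h, with 22.1 ± 7.99 CPM in Kaede-green against 104 ± 20.2 CPM in Kaede-red cells (2.26, adjusted p = 9.39e-08), and stood at 33.1 ± 1.47 against 33.3 ± 3.04 CPM at 72h (0.01, adjusted p = 0.987). Pik3cg, the catalytic subunit of a G protein-activated lipid kinase, rose by 1.26 (SE 0.21, adjusted p = 3.59e-05) and the Rac activator Prex1 by 0.81 (SE 0.14, adjusted p = 6.71e-05). From 24h to 72h in Kaede-red cells 8 of the 19 were called higher, where 4.92% of all genes were, and 1 was called lower, where 3.76% were. The latter was Rgs1 (-1.64, SE 0.21, adjusted p = 4.88e-05). Of 24 transcription factors and RNA-binding regulators of chemokine transcripts, 7 were called higher and 2 lower over both times, where 10% and 10.3% of all genes were. At 24h 3 of these regulators were called higher and 3 lower (median log2 fold change -0.01), and at 72h 9 higher and 0 lower (median 0.51). Of the signalling genes 3 were called higher at 24h and 8 at 72h, and none lower. Of all genes 3.22% were called higher and 4.28% lower at 24h, and 8.06% and 8.76% at 72h. Among the regulators with the smallest p-values over both times were the macrophage factor Maf (1.12, SE 0.15, edgeR adjusted p = 1.75e-06), the mRNA-destabilising Zfp36l1 (1.31, SE 0.19, adjusted p = 4.09e-06) and the AP-1 subunit Jun (0.57, SE 0.15, adjusted p = 0.00445). In Kaede-red cells 4 of the 24 were called higher and 0 lower at 72h than at 24h, where 4.92% and 3.76% of all genes were. The medians of both lists were 0.38 and 0.19 over both times, against 0.06 for all genes.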

How the data were processed

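The deposited values were raw counts, whole numbers of reads per gene for 24421 symbols in 16 libraries of 4 groups, prepared with a stranded total RNA kit from low input. According to the study, the authors used Trim Galore for trimming, HISAT2 for alignment against mm10 and featureCounts for counting; tool versions and the strand setting are not given in the sources used here. The combined table held the same 16 columns as the single files. The tables still held the ribosomal gene Rn45s.

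Counts were tested with edgeR 4.0.16 in R 4.3.3, with filterByExpr, TMM factors and quasi-likelihood tests in 1 fit of all libraries with a mean per group and no replicate block. P-values were adjusted by the Benjamini-Hochberg method over 9642 genes, with a threshold of 0.05. CPM used TMM-corrected library sizes, and log2 CPM a prior count of 2. The script was tested on simulated data. DESeq2 1.42.0, RLE factors, other filters and scalings, replicate blocks, an Rn45s covariate and leaving out each library were alternatives. Intervals and floors cover counting error only. Libraries of a group were not copies of each other, since the chi-square statistic per gene was 3.21 to 95.6 over 24 pairs.

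The members, lists and tests were chosen with earlier results of these data known. The text names all members, every tested CC chemokine and receptor, up to 4 genes by smallest p of the 2 other lists, and up to 3 genes most correlated with each member. Genes named beyond this rule are markers of cell types, chosen after their values were seen, and gene models that overlap a member. The values of 1 tested receptor and of 1 regulator that the rule would name are not reported here.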

Additional observations from a re-analysis of the deposited data

Results flagged for a closer look

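In 3 of the 40 sets of 4 libraries (10 members in 4 groups), 1 library stood apart from the other 3 by more than Dixon's test allows at the 95% level, where chance gives about 1 in 20. Ccl6 had 111.6 CPM in replicate 4 of Kaede-green at 24h and 229 to 253 CPM in the other 3 libraries. Without that library, Ccl6 was called lower in Kaede-red cells over both times (log2 fold change -0.47, edgeR adjusted p = 0.0404). Ccl8 had 10.1 CPM in replicate 3 of Kaede-red at 72h and 2.70 to 3.71 CPM in the others. Without it, Ccl8 was called lower at 72h than at 24h in Kaede-red cells (-1.63, edgeR adjusted p = 0.00977). Ccl24 had 1.04 CPM, from 4 counts, in replicate 4 of Kaede-green at 72h and 0 in the other 3 libraries. Beside 3 libraries at 0 any count is flagged by this test, so the flag says nothing about that library. Without that library, Ccl24 was called higher in Kaede-red cells over both times (edgeR adjusted p = 0.0498). Each remaining Kaede-green library then had at most 1 count. Ccl24 entered the test only through the Kaede-red libraries, so this call is no support for a difference.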

How the results depend on the processing

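Over both times 4 members were called, and 3 to 6 when 1 library was left out. Scaling by counts outside Rn45s gave 8, and a minimum of 10 counts in every library (7 members tested) or the Rn45s share as a covariate gave 2. On that scale tests against 0 do not allow for the median gene, and 63.5% of all genes were called over both times, compared with 48.2% at 24h and 37.6% at 72h. Of the members called higher there, Ccl2 and Ccl6 (at 24h, and also over both times) and Ccl4 at 72h lay below the median gene. At 24h 4 were called, 2 to 4 when 1 library was left out and 7 with scaling outside Rn45s. At 72h 3 were called, 5 with scaling outside Rn45s and 1 with either the minimum of 10 counts or the covariate. For 72h against 24h in Kaede-red 5 were called, and 1 to 7 when 1 library was left out. In Kaede-green 0 were called, and 1 with DESeq2 or with no filter. Except for the scaling outside Rn45s, the share of all genes called under these alternatives is not given here. Their counts are therefore no result about the members.

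Scaling by counts outside Rn45s turned the sign of Ccl2 (0.46), Ccl3 (0.46), Ccl4 (0.31) and Ccl6 (0.41) over both times, of Ccl2 (0.74), Ccl3 (0.70), Ccl6 (0.69) and Ccl9 (0.11) at 24h, of Ccl2 (0.19), Ccl3 (0.21), Ccl6 (0.14) and Ccl12 (0.31) at 72h, and of Ccl5 (0.11) and Ccl12 (0.13) between the times in Kaede-green. All of these lie below the median gene on that scale, which was at 0.82, 0.93, 0.68 and 0.20. The covariate turned Ccl2 (0.26 over both times, 0.32 at 24h, 0.21 at 72h), Ccl5 at 24h (-0.047) and Ccl12 at 72h (0.37). The cause was not tested. Leaving out 1 library turned uncalled values, with ranges of -0.21 to 0.27 for Ccl4 at 72h, -0.45 to 0.10 for Ccl5, -0.33 to 0.092 for Ccl12 and -4.23 to 1.16 for Ccl24 between the times in Kaede-green, and, for the change of the difference, -0.43 to 0.069 for Ccl3, -0.79 to 0.88 for Ccl8 and -2.32 to 3.08 for Ccl24.

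Replicate numbers were not stated to pair libraries, and same-numbered Kaede-green and Kaede-red libraries deviated together with correlations of -0.02 to 0.15 over 8 pairs, 1 of them over 0.1. With the number as a replicate block within each time, 5 members were called over both times, 5 were called at 24h and 3 at 72h. With 1 block over all groups, the counts were 4, 5 and 3. The share of all genes called under either block is not given here. Ccl12 passed at 24h under each block (edgeR adjusted p = 0.0438 and 0.0463) and Ccl4 over both times under the first (adjusted p = 0.0451). The shallow Kaede-green libraries limit what can be said of Ccl8, Ccl24 and Ccl22.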
